A study of Mus musculus with 6 samples.

Results

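The D and E cyclins, the kinases that they switch on and the phosphatase and kinase that prime those kinases were examined as a group of 10 genes. These were Ccnd1, Ccnd2, Ccnd3, Cdk4, Cdk6, Ccne1, Ccne2, Cdk2, Cdk7 and Cdc25a, and every probe set that the array's annotation assigned to one of these symbols alone was taken. There were 13 such probe sets for 9 of the 10 genes, among 12422 probe sets and 8251 genes in all, and none was assigned to Cdk6. RNA came from whole fetal livers at embryonic day 12.5, from Rb null embryos (n = 3) and wild type embryos (n = 3) that were the offspring of Rb heterozygous 129sv parents. None of the embryos was treated, 1 Affymetrix array was run per liver, and the comparison asks which of these transcripts differ when the Rb protein is missing.

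Passage from G1 into S phase is driven by cyclins, which are regulatory subunits, and by the cyclin-dependent kinases (CDKs) that they activate. D cyclins pair with Cdk4 or Cdk6, and E cyclins pair with Cdk2. Both kinds of complex phosphorylate the Rb protein, which then releases E2F transcription factors, and E2F in turn switches on genes that include Ccne1, Ccne2 and Cdc25a. Cdk7 activates other CDKs by phosphorylating them, and Cdc25a removes inhibitory phosphates from Cdk2 and its relatives. In the mid-gestation liver, which is mainly a red cell producing organ, mice that lack all D cyclins, or both Cdk4 and Cdk6, are known to develop anaemia.

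Levels are MAS5 signals, the linear brightness that Affymetrix software computes for a probe set, and the number of arrays limits their precision. Signals of different probe sets depend on their probes, so the levels of paralogs were not compared with each other. Differences are on the log2 scale, Rb null minus wild type, of signal plus an offset of 50.02 units, ± SE, which understates changes of dim probe sets. Probe sets with a mean signal above 150.1 over the 6 arrays were tested with limma, and one was called higher or lower at a Benjamini-Hochberg adjusted p below 0.05 over 6793 tested probe sets.

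The share of calls among these transcripts was close to that of the whole array, and the called differences were small. Of the 10 tested probe sets, which stood for 8 genes, 2 fell in Rb null livers, 8 did not pass the test, and 0 rose. The 2 that fell were those of Cdk4 (160538_at, -0.24) and Cdc25a (97390_at, -0.25). The 8 are not thereby shown to be unchanged, since their 95% intervals reached -0.89 for Cdk7 and 0.57 for Cdk4 101017_at. Among all tested probe sets 9.08% were lower and 12.8% were higher, which makes 21.8% called either way, and the 2 calls among the 10 are close to that share. At an unadjusted limma p below 0.05, 4 of the 10 were lower and 0 higher, where 15.4% of all tested probe sets were lower and 20.2% higher. The values of the 2 genotypes did not overlap for 4 of the 10, all of them lower in Rb null livers, where 17.2% of all tested probe sets did not overlap in that direction and 22.9% in the other, 40.0% in all. The median log2 fold change of the 10 was -0.17, beside 0.02 for all tested probe sets.

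**Figure D1:**
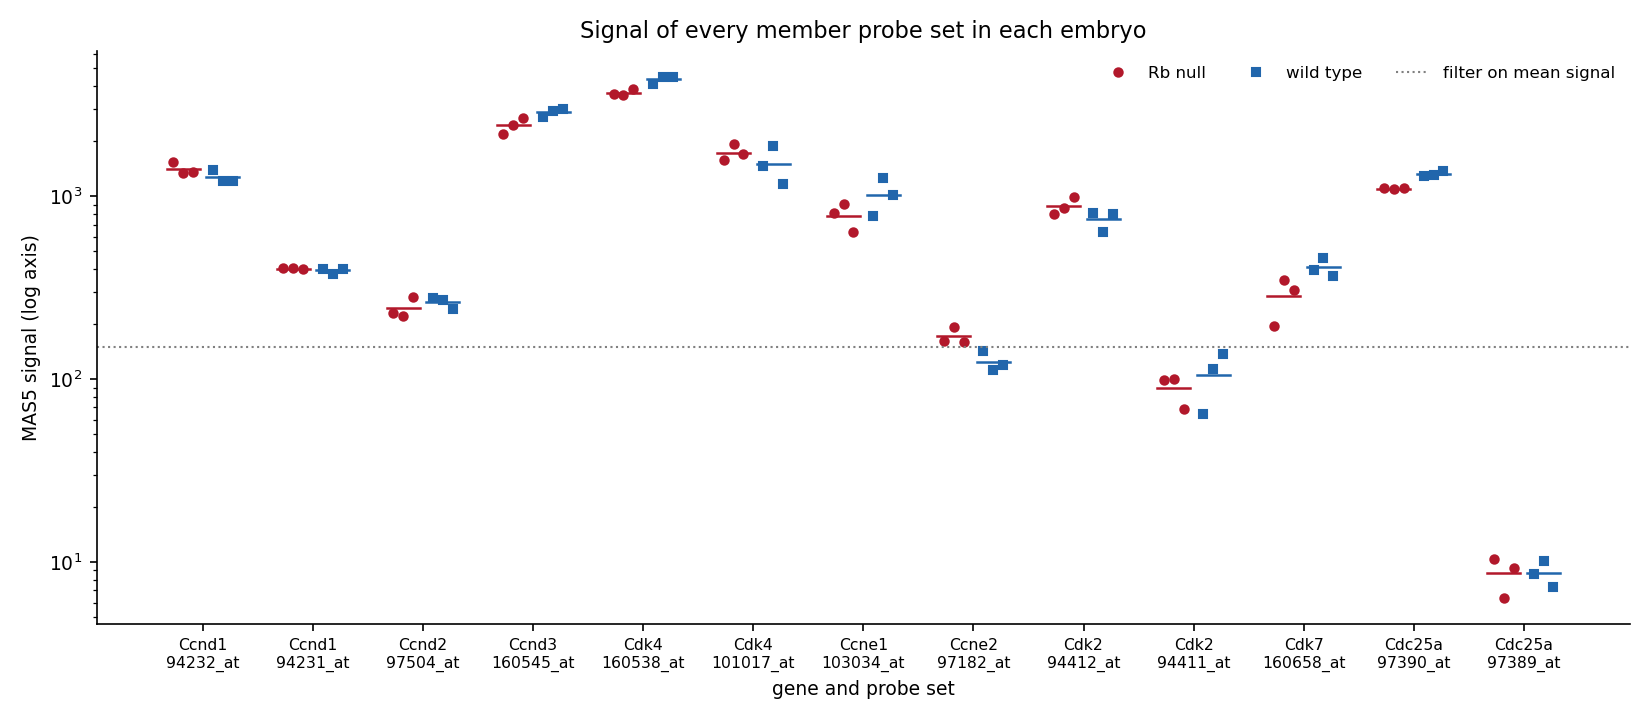
MAS5 signal (log axis) of the 13 probe sets in each of the 6 embryos, with Rb null embryos as circles and wild type embryos as squares; horizontal bars are group means and the dotted line is the filter of 150.1. The genotypes are separate for Ccnd3, for Cdk4 160538_at, for Cdk7 and for Cdc25a 97390_at, each lower in Rb null, and for the dim Ccne2, which is higher in Rb null.

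The arrays had 2% trimmed means between 500.22 and 500.25, and their median signal was 197 to 203 in Rb null against 176 to 186 in wild type arrays. Rb1 read 136 ± 7.52 in Rb null livers and 750.1 ± 42.3 in wild type livers (SD, n = 3 each). Whether the Rb1 probes lie within the deletion is not stated by the labels, so this level alone does not check the genotypes. All 6 erythroid markers on the array read 983 or more in every embryo, as the labelled tissue would have them. Of these 6, 5 fell in Rb null livers, and their summed signal was 31584 to 35712 in Rb null against 41981 to 45071 in wild type livers. Markers of mesenchyme (3 of 5 higher), endothelium (2 of 5), macrophages (2 of 6), megakaryocytes (1 of 2) and progenitors (1 of 3) moved the other way, while 2 of 7 hepatoblast markers fell. The other 5 hepatoblast markers did not pass, and the median log2 fold change of the 7 was 0.10, toward higher in Rb null. Summed signals of mesenchyme markers were 8737 to 9849 in Rb null against 7032 to 7203 in wild type livers, and those of progenitor markers 1525 to 1582 against 993 to 1098. No marker was at 0, and 5 of 39 lay under the filter described above. The part of this shift in the results below was not tested, and in whole livers fewer cells of a type and less RNA per cell cannot be told apart.

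Among D cyclins, the growth factor responsive subunits that open G1, none passed the test. Ccnd1 (94232_at) read 1534, 1344 and 1348 in the Rb null embryos, against 1388, 1207 and 1212 in the wild type embryos. The genotypes overlapped, and the difference of 0.15 ± 0.08 had a limma adjusted p = 0.23 and a 95% interval from -0.04 to 0.33. It was 0.01 after median scaling and 0.08 without Rb null embryo 1. Its other probe set (94231_at) hardly varied, with 404, 404 and 398 against 402, 375 and 402. That difference was 0.03 ± 0.08 (limma adjusted p = 0.83), with a 95% interval from -0.15 to 0.20. Its sign turned to -0.07 after quantile normalization, -0.09 after median scaling and -0.06 after cyclic loess normalization. Between the 2 Ccnd1 probe sets the change differed by 0.12, which an exact two-sided permutation test did not separate from the spread between embryos (p = 0.3).

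Ccnd2 (97504_at) was dim, with 230.0, 222 and 282 in Rb null embryos, against 278, 271 and 243 in wild type embryos. One Rb null embryo was above all wild type embryos and the other two were below them, so that the difference of -0.10 ± 0.11 did not pass (limma adjusted p = 0.59, 95% interval -0.35 to 0.16), and it ranged from -0.19 to -0.04 when single embryos were left out. Ccnd3 (160545_at) was among the brightest probe sets, above 91.1% of those tested or level with them. It read 2181, 2440.3 and 2691 in Rb null embryos, against 2703, 2937 and 2980 in wild type embryos. All Rb null values lay below all wild type values, with the nearest pair 2691 and 2703 almost touching. The difference of -0.24 ± 0.08 did not pass over all probe sets (limma adjusted p = 0.072), and its 95% interval ran from -0.42 to -0.05. It passed after scaling the arrays to equal medians (-0.37, limma adjusted p = 0.018) and without Rb null embryo 3 (-0.31, limma adjusted p = 0.030). Other settings made it smaller. It was -0.15 after quantile normalization (limma adjusted p = 0.18) and -0.16 after cyclic loess normalization (limma adjusted p = 0.19). Without Rb null embryo 1 it was -0.16 (limma adjusted p = 0.19).

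The D cyclin kinase Cdk4 had the brightest probe set of the group, and it fell. Probe set 160538_at read 3607, 3571 and 3852 in Rb null embryos, against 4100.2, 4495 and 4473 in wild type embryos. The means of 3677 ± 153 and 4356 ± 222 (SD, n = 3 each) differ by 0.24 ± 0.06 downward on the log2 scale, so that Rb null livers had 84.4% of the wild type signal (limma log2 fold change -0.24, adjusted p = 0.022). The 3 Rb null values were all below the 3 wild type values. The other Cdk4 probe set (101017_at) leaned the opposite way, with 1582, 1917 and 1691 in Rb null embryos, against 1455, 1878 and 1162 in wild type embryos. There the genotypes overlapped (0.22 ± 0.15, limma adjusted p = 0.34), and its wild type values were widely spread. The difference was 0.06 without wild type embryo 3, 0.39 without wild type embryo 2 (limma adjusted p = 0.054) and 0.09 after median scaling. Within each embryo the log2 difference of 160538_at minus 101017_at was 1.16, 0.88 and 1.16 in Rb null, against 1.46, 1.24 and 1.90 in wild type embryos. These did not overlap, and the exact two-sided permutation p = 0.1 is the smallest that 3 against 3 allows.

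The Cdk4 fall was not kept by all settings. It was -0.13 after quantile normalization (limma adjusted p = 0.079), -0.12 after cyclic loess normalization (adjusted p = 0.12) and -0.01 for the mean of both probe sets (adjusted p = 0.96). It also missed the threshold without an intensity trend (adjusted p = 0.054), and without Rb null embryo 1, Rb null embryo 2, wild type embryo 2 or wild type embryo 3, with limma adjusted p values from 0.067 to 0.078. Over all tested probe sets the median log2 difference was -0.14 among the brightest 10% and 0.09 among the dimmest 10%, and 160538_at was at percentile 95.5 of signal. The part of that slope in the Cdk4 difference was not tested.

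The start of Cdk4 is shown because Cdk4 is known as a target of Myc, whose family binds CACGTG. The sequence is RefSeq's, GRCm38.p6, plus strand, chr10:127063285-127063584, from 250 bases before to 50 bases after the annotated start, with CACGTG in capitals. CACGTG reads the same on both strands and was counted once per place.
Cdk4: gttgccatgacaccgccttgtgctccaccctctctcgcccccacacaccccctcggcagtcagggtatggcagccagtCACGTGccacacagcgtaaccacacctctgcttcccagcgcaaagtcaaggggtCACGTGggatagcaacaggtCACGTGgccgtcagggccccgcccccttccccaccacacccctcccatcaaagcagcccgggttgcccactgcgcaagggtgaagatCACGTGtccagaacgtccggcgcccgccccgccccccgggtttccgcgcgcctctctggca
The window held CACGTG at 4 places, where 8 of 32851 mouse windows of 300 bases held 4 or more and 7.15% held at least 1. Of the 8 windows found for 7 of the 10 genes, those of Cdk6 and Cdk7 held it once each. Of the Myc family genes measured, Mycn read 417 ± 42.8 in Rb null livers and 295 ± 36.1 in wild type livers, and Myc 719 ± 61.4 and 626 ± 41.6 (SD, n = 3 each). Mycn passed the test (limma adjusted p = 0.026), a call lost in 8 of 16 alternatives, and Myc did not pass (0.19 ± 0.08, limma adjusted p = 0.15). A match is a description of letters and shows no binding.

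The E cyclins, which carry cells across the G1/S boundary, had opposite signs. Ccne1 (103034_at) read 808, 902 and 633 in Rb null embryos, against 776, 1265 and 1016 in wild type embryos. The genotypes overlapped, since wild type embryo 1 lay below 2 of the Rb null embryos. The difference of -0.35 ± 0.18 did not pass (limma adjusted p = 0.20, 95% interval -0.75 to 0.05), and the residual spread of this probe set was at percentile 94.8. It was -0.19 without wild type embryo 2, -0.22 without Rb null embryo 3 and -0.52 without wild type embryo 1 (limma adjusted p = 0.060). Ccne2 (97182_at) read 162, 193 and 159 in Rb null embryos, against 143, 112 and 119 in wild type embryos. All Rb null values were higher, but the mean of 148 lay just under the filter and was not shown to be above background, so it was not tested. With no filter its difference of 0.34 ± 0.13 did not pass (limma adjusted p = 0.17).

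Cdk2, the partner of the E cyclins, did not pass either. Its brighter probe set (94412_at) read 802, 858 and 989 in Rb null embryos, against 810, 635 and 804 in wild type embryos, values that overlapped. The difference was 0.23 ± 0.11 (limma adjusted p = 0.19, 95% interval -0.03 to 0.48). It was 0.12 without wild type embryo 2, 0.15 without Rb null embryo 3 and 0.10 after median scaling. The dim one (94411_at) lay below the filter, between 68.7 and 100.2 in Rb null and between 64.3 and 137 in wild type embryos. Its difference was -0.13, opposite in sign to the brighter one, and was not tested.

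Cdk7, the catalytic subunit of the CDK-activating kinase and of the general transcription factor TFIIH, had the largest difference among the tested probe sets of the group, without a call. It read 195, 350.1 and 308 in Rb null embryos, against 396, 459 and 368 in wild type embryos. The groups did not overlap, and Rb null embryo 1 was far below the rest. The difference of -0.48 ± 0.18 had a limma adjusted p = 0.091 and a 95% interval from -0.89 to -0.07, and the residual spread was at percentile 94.1. Without Rb null embryo 1 it was -0.27 (adjusted p = 0.18), and after median scaling it was -0.60 and passed (adjusted p = 0.034). Mnat1, which assembles Cdk7 with its cyclin, read 556 ± 90.9 in Rb null livers and 594 ± 75.3 in wild type livers (-0.09 ± 0.12, limma adjusted p = 0.65, n = 3 each).

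Cdc25a, the phosphatase that releases Cdk2 from inhibition, fell with little spread. Probe set 97390_at read 1103, 1094 and 1108 in Rb null embryos, against 1284, 1304 and 1373 in wild type embryos. The 3 Rb null values lay close together and all below the wild type values. The means were 1101 ± 7.15 and 1320.5 ± 46.5 (SD, n = 3 each), so that Rb null livers had 83.4% of the wild type signal (-0.25 ± 0.06, limma adjusted p = 0.016). Its residual spread was lower than that of all but 3.44% of the tested probe sets, whereas Cdk7 and Ccne1, with differences of larger size, were among the most variable. The other Cdc25a probe set (97389_at) read 6.40 to 10.4 in Rb null and 7.30 to 10.1 in wild type embryos, far under the filter, and gives no check. The fall was -0.25 after quantile normalization (adjusted p = 0.0199) and -0.24 after cyclic loess normalization (adjusted p = 0.021). The call ended when Rb null embryo 2 was dropped (-0.25, limma adjusted p = 0.0504), and when wild type embryo 3 was dropped (-0.22, limma adjusted p = 0.062).

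The start of Cdc25a is shown because it is a known E2F target. The sequence is RefSeq's, GRCm38.p6, plus strand, chr9:109875329-109875628, from 250 bases before to 50 bases after the annotated start. The words TTTCCCGC, TTTCGCGC, TTTGCCGC and TTTGGCGC, forms of the E2F consensus, were searched on both strands, and the match is in capitals.
Cdc25a: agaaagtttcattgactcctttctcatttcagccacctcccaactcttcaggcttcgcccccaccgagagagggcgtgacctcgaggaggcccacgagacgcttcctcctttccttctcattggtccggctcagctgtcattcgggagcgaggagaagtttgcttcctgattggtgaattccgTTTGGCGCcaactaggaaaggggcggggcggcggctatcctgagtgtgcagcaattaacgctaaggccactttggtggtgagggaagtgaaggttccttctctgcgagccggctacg
TTTGGCGC lay 67 to 60 bases before the start on which the window is set. RefSeq's gene table begins Cdc25a 61 bases farther upstream, at a base within this word, so its distance depends on which start is taken. One or more of the 4 words was found in 2.26% of the mouse windows of this length, and in 2 of the 8 windows of this group, those of Cdc25a and Cdk2. The Ccne1 window held none of them, which says only that these letters are not in that window.

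**Figure D2:**
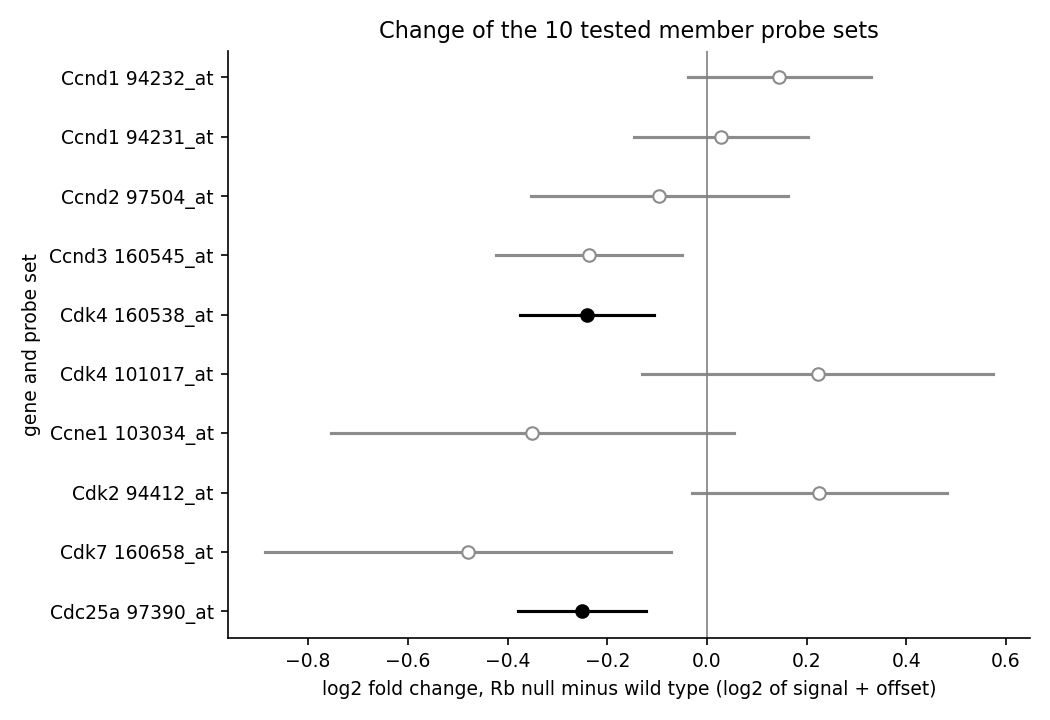
Log2 fold change (Rb null minus wild type, log2 of signal plus offset) of the 10 tested probe sets with 95% intervals of the limma fit. Filled points passed the adjusted threshold of 0.05: Cdk4 160538_at at -0.24 and Cdc25a 97390_at at -0.25.

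Paralogs were compared through their within-embryo log2 difference, whose change between genotypes shows unequal change and not which paralog is more abundant. Cdk4 and Cdk6 could not be set side by side, which left 4 pairs. Ccne1 minus Ccne2 was 2.02, 1.97 and 1.71 in Rb null embryos, against 2.09, 3.02 and 2.65 in wild type embryos. The groups did not overlap, and the difference of -0.69 reached p = 0.1, the smallest that an exact two-sided permutation test allows here (adjusted p = 0.27 over 4 pairs), with Ccne2 under the filter. After quantile normalization it was -0.61 (exact permutation p = 0.2). Ccnd1 minus Ccnd3 was -0.49, -0.84 and -0.97 in Rb null embryos, against -0.94, -1.25 and -1.26 in wild type embryos. These overlapped at one embryo (difference 0.38, exact permutation p = 0.2, adjusted p = 0.27). Ccnd1 minus Ccnd2 differed by 0.24 between genotypes (exact permutation p = 0.3, adjusted p = 0.3), by 0.36 after quantile normalization (exact permutation p = 0.1), and by 0.15 without Rb null embryo 1. Ccnd2 minus Ccnd3 differed by 0.14 (exact permutation p = 0.2, adjusted p = 0.27), turning to -0.054 after quantile normalization.

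**Figure D3:**
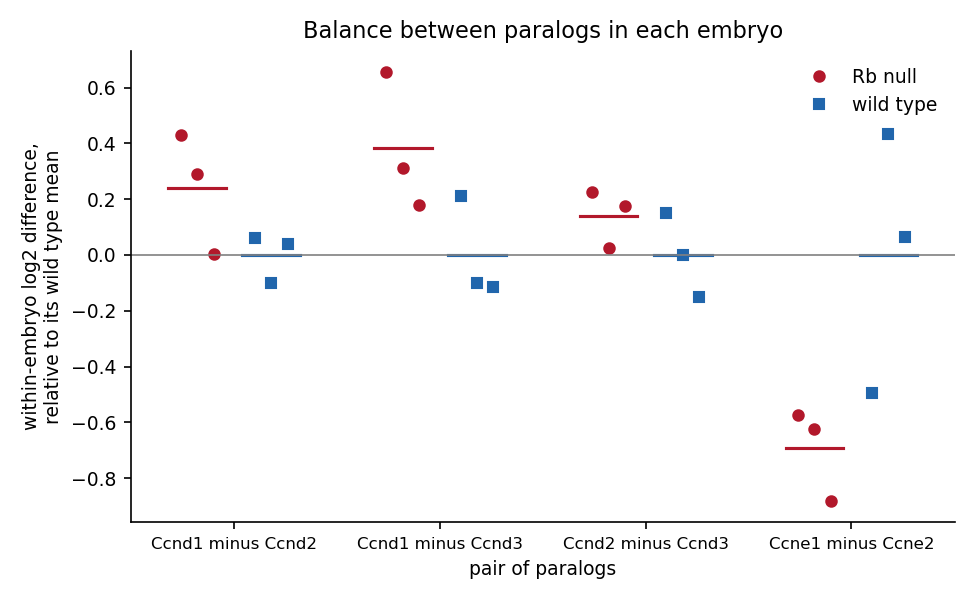
Within-embryo log2 difference between the brightest probe sets of 2 paralogs, drawn relative to its wild type mean, for Rb null (circles) and wild type (squares) embryos; bars are group means. The genotypes are separate for Ccne1 minus Ccne2 (-0.69) and overlap for the D cyclin pairs.

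**Figure D4:**
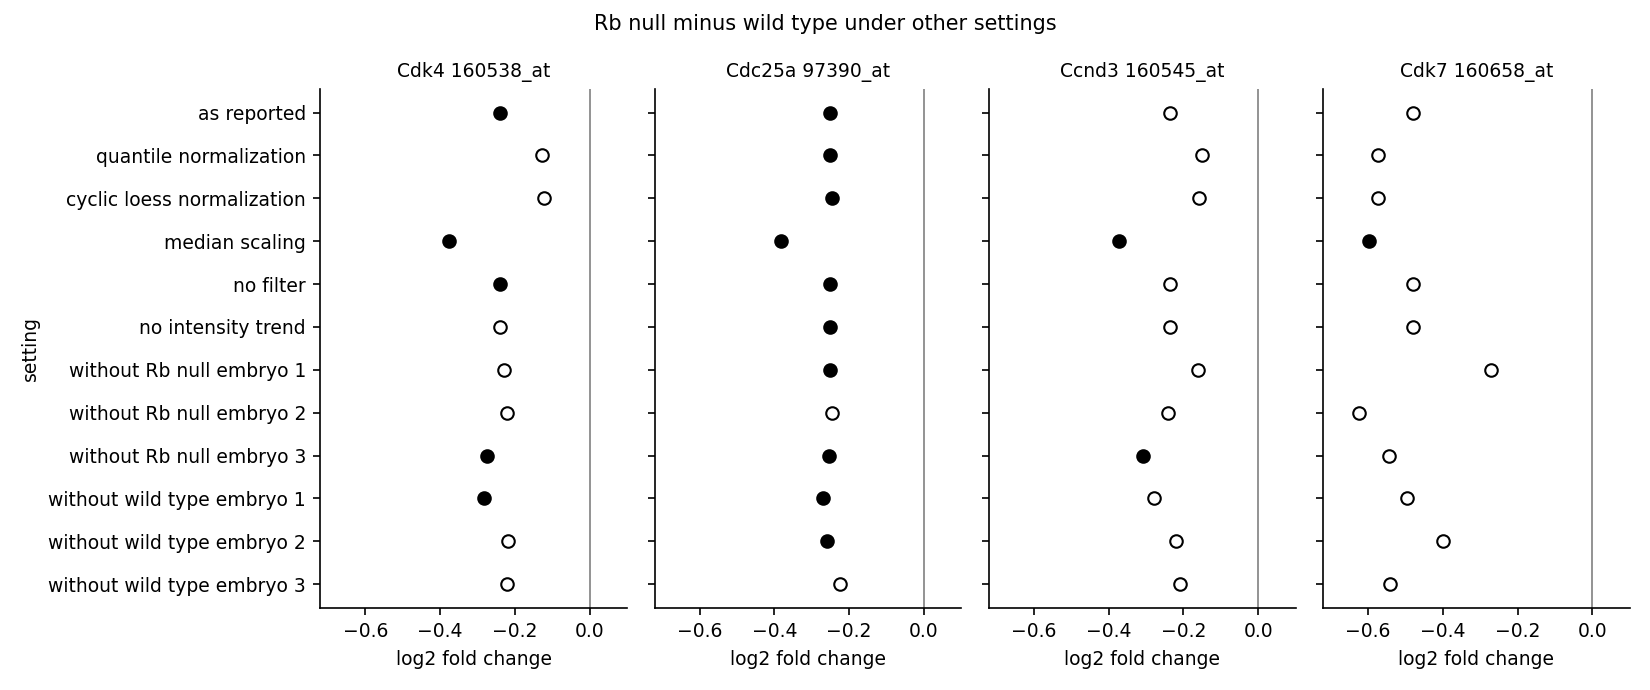
Log2 fold change (Rb null minus wild type) of the 4 tested probe sets whose genotypes did not overlap, under other settings; filled points have a limma adjusted p below 0.05. All points lie below 0, while Cdk4 and Cdc25a lose their call under some settings and Ccnd3 and Cdk7 gain one under others, such as median scaling.

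A gene's profile was its 6 log2 values, each taken as a difference from that gene's own wild type mean. Profiles of 5265 tested genes were compared with those of the called members by the root mean square distance between them. The genes nearest to the Cdk4 profile (160538_at) were Fth1, a ferritin subunit (0.0153), Psmd11, a proteasome subunit (0.0230), and Cant1 (0.0235). Nearest to the Cdc25a profile (97390_at) were Polr2f, a subunit of RNA polymerases (0.0137), Nek2, a mitotic kinase (0.0163), and Cbx1, a heterochromatin protein (0.0188). Nek2 read 827 in Rb null livers and 993 in wild type livers on average, and Fth1 read 8947 and 10626.

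The rest of the pathway was read from 7 lists of 63 genes, 40 of which were tested, each by its brightest probe set. Of these, 4 rose, 6 fell and 30 did not pass, with a median log2 fold change of -0.07, where 13.1% of all tested genes rose, 9.50% fell and the median was 0.02. The 6 that fell include Rb1, the gene altered by design, whose fall says nothing about the rest of the pathway. Cyclins of S phase and mitosis all fell, 3 of 3 tested. Ccna2, the cyclin that follows cyclin E on Cdk2, read 2694 ± 319 in Rb null livers and 3739 ± 371 in wild type livers (-0.47 ± 0.10, limma adjusted p = 0.013, n = 3 each). Ccnb2, a mitotic cyclin, fell by 0.22 ± 0.05, and Ccnf, a substrate receptor of a ubiquitin ligase, fell by 0.19 ± 0.06 (limma adjusted p = 0.0498). Ccna2 lost its call without Rb null embryo 2 (adjusted p = 0.0504). Ccnb2 lost it after quantile normalization (-0.05), after cyclic loess normalization (-0.05), with no filter (adjusted p = 0.052), with no intensity trend (adjusted p = 0.060), and without Rb null embryo 1 or 2 or wild type embryo 2 or 3. Ccnf lost its call in 12 of 17 alternatives, which include quantile (limma adjusted p = 0.097) and cyclic loess normalization (0.109), no filter (0.068), no intensity trend (0.090) and leaving out any embryo but Rb null embryo 1.

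Of the other cyclins and transcriptional CDKs, 1 of 7 rose. Ccng2, an atypical cyclin linked to cell cycle arrest, read 921 ± 97.4 in Rb null livers and 432 ± 16.3 in wild type livers (1.01 ± 0.09, limma adjusted p = 3.1e-04, n = 3 each). Of 4 tested CDK inhibitors 1 rose, Cdkn1c, which blocks G1 CDKs (5160.3 ± 235 in Rb null, 4329 ± 128 in wild type, 0.25 ± 0.05, limma adjusted p = 0.015, n = 3 each), a call lost after median scaling (0.11). Cdk5, a CDK best known from neurons and activated by other partners than cyclins, was the only one of 6 other kinases and phosphatases to pass (322 ± 21.3 in Rb null, 183 ± 38.0 in wild type, 0.69 ± 0.13, limma adjusted p = 0.0093, n = 3 each).

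Cdc34, the ubiquitin-conjugating enzyme that works with SCF ligases on G1 regulators, fell to 1419 ± 56.9 in Rb null livers, against 2126 ± 45.8 in wild type livers (-0.57 ± 0.05, limma adjusted p = 4.7e-04, n = 3 each), and was the only one of 7 in its list to pass. Of the Rb and E2F family, Rb1, which was altered by design, and Tfdp1 fell, 2 of 5, whereas E2f1 (-0.05 ± 0.08) and E2f5 (0.08 ± 0.10) did not pass. E2f3 lay under the filter and was not tested (129 in Rb null, 109 in wild type). E2f2, E2f4 and E2f6 had no probe set assigned to them alone. Tfdp1, the usual dimer partner of E2F proteins, read 3593 ± 118 in Rb null livers and 4775 ± 453 in wild type livers by its brightest probe set (-0.40 ± 0.07, limma adjusted p = 0.0068, n = 3 each), while its other probe sets did not pass (-0.19 and 0.04). Among upstream mitogen factors, 1 of 8 rose, Mycn (0.44 ± 0.11, limma adjusted p = 0.026). Its call was lost after quantile normalization (0.34), cyclic loess normalization (0.34) and median scaling (0.32), with no filter (limma adjusted p = 0.054), and without Rb null embryo 1 or 3 or wild type embryo 1 or 2.

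**Figure D5:**
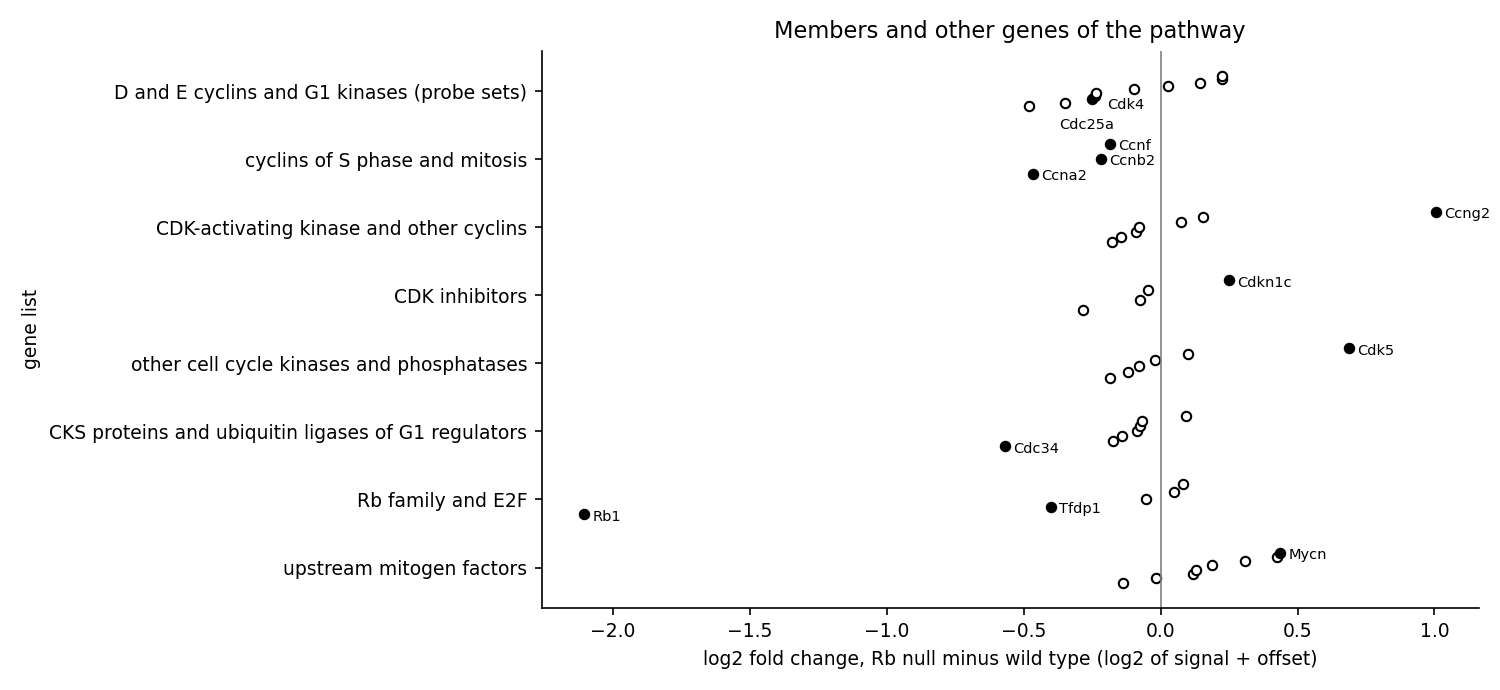
Log2 fold change (Rb null minus wild type) of the 10 tested probe sets of the group (top) and of 40 tested genes in 7 pathway lists. Filled, named points passed the limma threshold of 0.05, and those farthest from 0 are Rb1 (-2.10, altered by design), Ccng2 (1.01) and Cdk5 (0.69).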

How the data were processed

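Per the labels' protocols, each array received biotin-labelled target made from 6 ug of Trizol-extracted RNA. Per the submitters' processing notes, the deposited signal intensities came from MAS5, with no version or scaling stated there, and the values themselves are on a linear scale. From these, R 4.3.3 and limma 3.58.1 gave the tests (trended moderated test on log2 of signal plus 0.1 of the trimmed mean, filter at 0.3 of it), with 66 array controls left out. Probe sets were named by the platform annotation, 10833 with 1 symbol, 396 with several and 1193 with none, and symbols were updated through RefSeq. Named genes were all group members, Rb1 and the E2F genes, up to 3 called genes per pathway list, and the 3 nearest profiles of each called member. Myc, Max, Mxi1, Mnat1 and the cell type markers named singly fall outside that rule and were added after their values were seen. The members and lists were chosen with earlier results of these data known. The fit was tested on simulated data. Same-numbered embryos of the 2 genotypes deviated with correlations of -0.06, 0.05 and 0.27, so the numbers were not taken as pairs. The probe set pairs of Ccnd1 and Cdk4 were compared after their values were seen.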

Additional observations from a re-analysis of the deposited data

How the results depend on the processing

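No member probe set rose under any of the 17 alternatives in which members were counted. Median scaling shifted the median log2 fold change of all tested probe sets by -0.12. It gave 480 higher and 1361 lower probe sets, so 26.1% of the calls were upward against 58.4% as deposited (867 and 617). It also gave 4 lower members, with 2 higher and 12 lower pathway genes. Members lower numbered 1 after quantile normalization, 1 after cyclic loess normalization and 1 without an intensity trend, each of which kept Cdc25a. The stricter filter of 500.2, which tests fewer probe sets, gave 513 higher probe sets and 2 higher pathway genes. Without single embryos there were 532 to 712 higher and 317 to 529 lower probe sets, 0 to 3 lower members, and 3 to 5 higher and 3 to 5 lower pathway genes. The 0 came without Rb null embryo 2 or wild type embryo 3. With the replicate block there were 813 higher and 606 lower probe sets, and 3 lower members, Cdk4, Cdc25a and Ccnd3 (limma adjusted p = 0.030 for Ccnd3), Ccnf lost its call (limma adjusted p = 0.059), and 1 of 3 numbers correlated best with its own number. The change of Ccnd2 minus Ccnd3 was -0.054 after quantile normalization, and the cause was not tested. With 3 arrays per genotype, differences of the size of the Cdk7 one did not pass where spread was large, and signals under the filter were not shown to be above background.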

Other observations

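Beyond the group and the 7 lists, 15 other genes with symbols that begin like those of cyclins or CDKs were on the array. Of these, 11 were tested, 0 rose, 1 fell and 10 did not pass the limma test. Among all tested genes 13.1% rose and 9.50% fell. The 15 were picked by symbol after the values were seen, and some, such as Ccndbp1, are not cyclins or CDKs. The one that fell was Ccndbp1, whose protein binds D cyclins, with 1394 ± 89.8 in Rb null livers and 1672 ± 120 in wild type livers (-0.25 ± 0.07, limma adjusted p = 0.042, n = 3 each). Ccni read 1836 ± 117 in Rb null livers and 1465 ± 202 in wild type livers (limma adjusted p = 0.053, n = 3 each).

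Ccnb1ip1, a ligase that binds cyclin B and acts in meiosis, lay under the filter on mean signal and was therefore not tested. Its probe set (161126_at) read 249.7, 215 and 229 in Rb null embryos, against 21.6, 25.8 and 35.1 in wild type embryos. The genotypes lay far apart, and with no filter the difference was 1.86 ± 0.13 (limma adjusted p = 6.8e-04). Whether the wild type signals exceed background is not known, which leaves the size of the difference uncertain.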
